A study of Rattus norvegicus with 10 samples.

Results

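Ndufa1, Mis18a, NEWGENE_1310561, Mfsd14a and Mark3 were examined as 5 genes, of 1319 in the deposited table, whose levels stood apart in some lung libraries and not in others. They were picked by name after their values were known. Those values are the levels in the 10 libraries and the authors' comparison of the genotypes, so what follows on levels and genotype differences is a description and carries no test. The table lists only genes with an unadjusted p under 0.05 in the authors' own comparison of the genotypes. The libraries were made from lung of 8-week-old Sprague Dawley rats, 5 from Cmg2-KO rats and 5 from wild-type (WT) rats, and were sequenced as mRNA profiles. Cmg2 encodes the capillary morphogenesis gene 2 protein, also called ANTXR2, a cell-surface protein that anthrax toxin uses for entry and that takes up extracellular matrix. The labels give neither how the knockout was made nor whether the libraries of a genotype came from separate animals, nor the sex of the rats. Transcripts of Cmg2 itself were not analysed here, so no level of the deleted gene checks the labels.

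Sprague Dawley is an outbred strain, so its animals can carry different alleles of the same gene. An allele that alters the output of its own copy is expected, as background, to sort animals into separate levels. For an autosomal gene, carriers of a single copy lie midway between the homozygotes when the effect is additive. Ndufa1 lies on chromosome X and the sex of the rats is not given, so this midway expectation cannot be applied to it. No genotypes or reads were analysed here, so alleles could not be assigned to any library.

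Ndufa1 encodes a small accessory subunit of mitochondrial complex I, the NADH:ubiquinone oxidoreductase of the respiratory chain. Mis18a encodes a component of the Mis18 complex, which prepares centromeres for loading of the centromeric histone Cenpa. NEWGENE_1310561 is a placeholder symbol whose deposited description is programmed cell death 5, the protein made by Pdcd5, a gene linked to apoptosis. Mfsd14a encodes a membrane protein of the major facilitator superfamily of transporters. Mark3 encodes microtubule affinity regulating kinase 3, a serine/threonine kinase that acts on microtubule-associated proteins and in cell polarity.

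The table places Ndufa1 (ENSRNOG00000040005) on chromosome X at 124513269 to 124516705, minus strand, with a gene model of 213 bases. Mis18a (ENSRNOG00000021555) lies on chromosome 11 at 30879887 to 30893310, minus strand, with 1491 bases, and NEWGENE_1310561 (ENSRNOG00000013250) on chromosome 1 at 91173473 to 91178801, minus strand, with 657 bases. Mfsd14a (ENSRNOG00000050407) lies on chromosome 1 at 69788609 to 69820981, plus strand, with 2785 bases, and Mark3 (ENSRNOG00000010330) on chromosome 6 at 136041777 to 136129661, plus strand, with 3334 bases. All 5 are annotated as protein coding, and the genome build of these coordinates is not given in the sources used here. In RefSeq (assembly GRCr8) 4 of the 5 genes lie on the chromosome that the table gives, Pdcd5 standing for NEWGENE_1310561. The exception was Mfsd14a, which RefSeq places on chromosome 2 while the table places it on chromosome 1.

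Gene copies limit how the counts of these genes can be read. By name alone, with no comparison of sequence, RefSeq lists a copy for 4 of the 5 genes, namely the pseudogene Ndufa1-ps2 on chromosome 12, Pdcd5l1 on chromosome 3, the pseudogene Hiat1-ps1 on chromosome 1 and Mark3-ps1, annotated as a lncRNA, on chromosome 1. Hiat1-ps1 carries Mfsd14a among its synonyms and lies on the chromosome where the table puts Mfsd14a. Hiat1-ps1 spans 2927 bases, against 32373 for the Mfsd14a row of the table and 41800 for Mfsd14a in RefSeq. Which of them the row stands for was not tested. No copy of Mis18a was found by name. Among the other table rows whose symbol is in RefSeq, 106 of 963 (11.0%) had a copy named in the same way, against 4 of 5 (80.0%) of the genes described here. This lookup was chosen after the values were seen. Reads that could fit a gene and its copy may have been split or dropped in counting, so the levels of these 4 genes are uncertain.

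The starts of the 3 genes with the widest range of levels are shown as reference sequence from RefSeq (GRCr8), each running from 250 bases before to 50 bases after the annotated start. They are shown so that the site where these transcripts begin can be compared between the genes, and the libraries' own sequence there was not analysed. Capitals mark matches, on either strand, to the motif GCATGCG (within the NRF1-type motif), the ETS-type motif CCGGAAG, the CCAAT box or the TATAAA box. Different motifs did not overlap one another in these windows.
Ndufa1 (chrX:121293506-121293805, minus strand): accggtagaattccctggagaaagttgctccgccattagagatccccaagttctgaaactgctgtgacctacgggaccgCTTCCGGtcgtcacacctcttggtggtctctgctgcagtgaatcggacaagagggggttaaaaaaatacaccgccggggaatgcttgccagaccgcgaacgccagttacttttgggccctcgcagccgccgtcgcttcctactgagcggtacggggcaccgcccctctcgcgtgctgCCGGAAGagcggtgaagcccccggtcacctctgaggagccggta
Mis18a (chr11:43467108-43467407, minus strand): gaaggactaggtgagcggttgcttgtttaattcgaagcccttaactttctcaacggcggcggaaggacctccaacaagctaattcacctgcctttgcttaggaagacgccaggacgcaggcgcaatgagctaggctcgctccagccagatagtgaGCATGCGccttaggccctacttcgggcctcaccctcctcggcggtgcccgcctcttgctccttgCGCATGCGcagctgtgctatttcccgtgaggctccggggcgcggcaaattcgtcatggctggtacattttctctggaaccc
Pdcd5, for NEWGENE_1310561 (chr1:97448035-97448334, minus strand): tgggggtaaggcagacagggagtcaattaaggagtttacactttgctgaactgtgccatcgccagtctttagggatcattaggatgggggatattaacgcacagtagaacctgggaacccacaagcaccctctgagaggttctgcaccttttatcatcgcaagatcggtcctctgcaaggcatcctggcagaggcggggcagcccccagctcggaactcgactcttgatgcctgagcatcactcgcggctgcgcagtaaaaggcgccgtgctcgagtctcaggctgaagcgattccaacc
The Ndufa1 window held CCGGAAG at 2 places, a motif found in 8.75% of 33469 windows of this length. The Mis18a window held GCATGCG at 2 places, in 1 of them on both strands with overlap, and this motif was found in 3.33% of the windows. None of the 4 motifs matched in the Pdcd5 window, and CCAAT and TATAAA, found in 37.5% and 14.2% of the windows, matched in none of the 3 shown. The windows held 25, 21 and 14 CpG dinucleotides for Ndufa1, Mis18a and Pdcd5, against a median of 7 over all windows.

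Levels are given as scaled counts, the authors' read counts divided by a size factor per library, in which 1 read was worth between 0.869 and 1.11. The listed genes took 1289524 to 1620198 reads in a library, and the total depth is unknown. The alveolar gene Sftpb and the club cell gene Scgb1a1, markers of lung epithelium, were abundant in both genotypes, Sftpb at 45493 ± 2914 in Cmg2-KO and 54112 ± 7232 in WT (SD, n = 5 each). Intervals quoted below are exact 95% Poisson intervals and cover counting error only. To look for discrete levels, the 10 values of a gene were ordered on the log2(scaled count + 1) scale and split at the largest gap between neighbours. Of the 1182 table rows with a mean of at least 10 scaled counts, 11.8% had a gap of at least 1 log2 unit, and 2.88% had a gap of at least 2. Among the 5 genes, 4 passed the first size and 2, Ndufa1 and NEWGENE_1310561, the second, which the choice of the genes fixed.

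**Figure D1:**
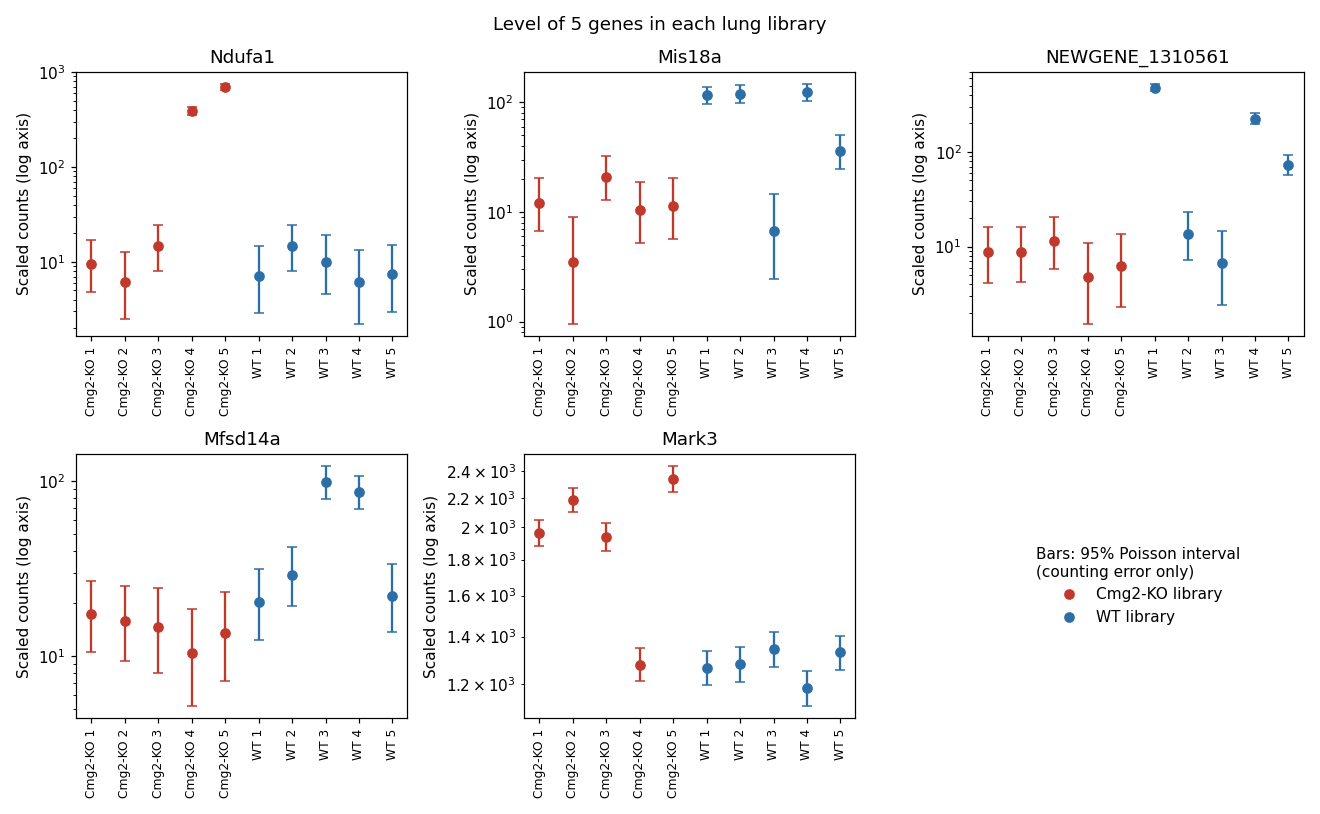
Scaled counts on a log axis for each gene in the 5 Cmg2-KO libraries (red) and the 5 WT libraries (blue), with 95% Poisson intervals as bars. Ndufa1 is high in Cmg2-KO 4 and Cmg2-KO 5, Mis18a in WT 1, WT 2 and WT 4, NEWGENE_1310561 in WT 1, WT 4 and WT 5, Mfsd14a in WT 3 and WT 4, and Mark3 in every Cmg2-KO library except Cmg2-KO 4.

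Ndufa1, the complex I subunit, was high in 2 libraries, both Cmg2-KO. It stood at 9.56, 6.15, 14.6, 389 and 698 scaled counts in Cmg2-KO 1 to 5, against 7.11, 14.5, 9.99, 6.07 and 7.36 in WT 1 to 5. The genotypes overlapped, since Cmg2-KO 1 and 2 lay among the WT libraries and Cmg2-KO 3 just above them. The lowest of the high libraries was 26.6-fold above the highest of the other 8, a gap of 4.64 log2 units that no other of the 1182 rows exceeded. The means were 223 ± 312 in Cmg2-KO and 9.01 ± 3.40 in WT (SD, n = 5 each), and the log2 fold change fitted by limma on the log2(scaled count + 1) scale was 2.39 ± 1.24 (SE). Without Cmg2-KO 5 the log2 fold change was 1.44, and without Cmg2-KO 4 it was 1.65. In the authors' deposited table the log2 fold change was 4.63 and the adjusted p was 0.0277.

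The 8 low Ndufa1 libraries formed a single level as far as counting can show. They held 6 to 14 reads each, every neighbouring pair in their order had overlapping intervals, and their variance was 1.28 times that of counting alone. The 2 high libraries did not share a level, since Cmg2-KO 5 was 1.79-fold above Cmg2-KO 4 and their intervals, 646 to 752 and 353 to 429, were apart. On the linear scale Cmg2-KO 4 stood at 55.8% of Cmg2-KO 5 and the other libraries at 0.870% to 2.10% of it. Per kilobase of gene model, the high libraries were at 1828 and 3275 scaled counts and the low ones between 28.5 and 68.6, while Mark3 was between 355 and 703 in all libraries.

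Ndufa1 was the only 1 of 37 nuclear complex I subunits on the list used that was in the table. The table holds 1319 genes, while the authors' adjustment fits 19894, so most genes of any list are absent from it. Here and for the lists below, an absent gene is one without an unadjusted p under 0.05. Its level is unknown, and nothing is read from these counts. Of 16 complex I assembly factors, Ndufaf6 alone was in the table, at 128 ± 20.6 in Cmg2-KO and 154 ± 10.5 in WT (SD, n = 5 each). Its log2 fold change of -0.28 ± 0.13 (SE) had an adjusted p of 0.961 in limma and of 0.744 in the authors' deposited table. LOC100909700, a CD177 antigen-like gene on chromosome 1, was the 1 row with the same libraries on the high side and a gap of at least 1 log2 unit. It stood at 8.69, 5.27, 8.35, 50.1 and 32.2 scaled counts in Cmg2-KO 1 to 5 and between 3.16 and 9.99 in WT, and was also the row most like Ndufa1, with a mean absolute difference of 0.96 log2 units over the 10 libraries after each row's median was subtracted. The median of that difference over 1181 rows was 1.49. The next most alike were an unnamed gene model on chromosome 6, described by an immunoglobulin V-set domain (1.12), and AABR07051564.1 (1.18).

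Both table rows within 1 Mb of Ndufa1 were low and did not follow its split. The transcription factor gene Zbtb33, 189 kb away, stood at 2.84 and 6.24 scaled counts in Cmg2-KO 4 and Cmg2-KO 5, at 2.64 to 6.27 in the other Cmg2-KO libraries, and at 2.10 to 31.1 in WT. An unnamed gene model 366 kb away was between 3.13 and 7.56 in Cmg2-KO and between 0 and 2.03 in WT. Of the marker lists with genes in the table, only that of plasma and B cells had its summed level highest in the same 2 libraries. The 3 of 9 such markers in the table, Jchain, Mzb1 and Xbp1, summed to 11126 in Cmg2-KO 4 and 10184 in Cmg2-KO 5, with 7419 to 9066 in the remaining Cmg2-KO libraries and 5306 to 8782 in WT. Of the 3, Xbp1 alone was highest in these 2 libraries, and Mzb1 was at 273 in Cmg2-KO 3 against 253 in Cmg2-KO 5. All 3 were higher in Cmg2-KO by log2 fold change. Rows are in the table for the genotype contrast, so high sums in Cmg2-KO libraries were partly fixed by that choice. None of these 3 markers was at 0, and the part of plasma and B cells in the Ndufa1 levels was not tested. In whole lung, fewer cells of a type and less RNA per cell cannot be told apart.

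Mis18a, the centromere gene, was high in 3 of the 5 WT libraries. It stood at 12.2, 3.51, 20.9, 10.4 and 11.4 scaled counts in Cmg2-KO 1 to 5, against 116, 119, 6.66, 123 and 35.8 in WT 1 to 5. WT 3 lay within the Cmg2-KO range, so the genotypes overlapped, and WT 5 lay between the levels. The means were 11.7 ± 6.19 in Cmg2-KO and 80.2 ± 54.9 in WT (SD, n = 5 each), and the log2 fold change fitted by limma was -2.28 ± 0.77 (SE). In the authors' deposited table the log2 fold change was -2.79 and the adjusted p was 0.00653.

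The upper level of Mis18a was the tightest of the 5 genes. WT 1, WT 2 and WT 4 held 114, 115 and 122 reads and varied 0.119 times as much as counting alone would give. The largest gap, 1.67 log2 units, lay between WT 1 and WT 5, which was at 29.0% of the highest library. Below it the values had no clear break. Every neighbouring pair from WT 5 down to Cmg2-KO 2 had overlapping intervals, although the 7 libraries as a set varied 8.22 times as much as counting. WT 5, with an interval of 24.8 to 49.97, was apart from Cmg2-KO 1, 4 and 5, WT 3 and Cmg2-KO 2, whose intervals reached 20.5 at most. A gap larger than that of Mis18a was found in 4.15% of the 1182 rows.

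Mis18a was the only 1 of 24 genes of centromeric histone loading in the table. Aurkb, which encodes the kinase of the chromosomal passenger complex, was the only 1 of 20 proliferation genes. The levels of the absent genes are unknown, since the table holds 1319 genes of the 19894 that the authors' adjustment fits. Aurkb stood at 524, 123, 132, 382 and 97.7 scaled counts in Cmg2-KO 1 to 5, against 2141, 535, 1053, 158 and 653 in WT 1 to 5. It did not share the order of Mis18a, with WT 4 low and WT 3 high, and its log2 fold change of -1.72 ± 0.68 (SE) had an adjusted p of 0.861 in limma. No row shared the Mis18a split with a gap of at least 1 log2 unit. The rows most like it were Brd2, which encodes an acetyl-lysine binding transcriptional regulator (0.82 log2 units, against a median of 1.47 over 1181 rows), and unnamed gene models on chromosomes 15 (0.86) and 2 (0.90). Brd2, on chromosome 20, was between 36.9 and 76.5 in Cmg2-KO, and at 280, 109, 40.0, 253 and 85.2 in WT 1 to 5. The 1 table row within 1 Mb, an unnamed gene model 358 kb away described by retroviral protease and Gag domains, was at 2.61, 0.879, 1.04, 10.4 and 1.04 in Cmg2-KO 1 to 5, against 91.4, 19.7, 25.5, 22.2 and 2.10 in WT 1 to 5, and was high in WT 3, where Mis18a was low.

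NEWGENE_1310561, described as programmed cell death 5, had graded values in WT and low values elsewhere. It stood at 8.69, 8.79, 11.5, 4.73 and 6.24 scaled counts in Cmg2-KO 1 to 5, against 478, 13.5, 6.66, 224 and 73.6 in WT 1 to 5. WT 2 and WT 3 lay at or next to the Cmg2-KO level, so the genotypes overlapped. The means were 7.99 ± 2.60 in Cmg2-KO and 159 ± 199 in WT (SD, n = 5 each), and the log2 fold change fitted by limma was -2.83 ± 1.01 (SE). In the authors' deposited table the log2 fold change was -4.32 and the adjusted p was 0.00682.

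The 7 low libraries of NEWGENE_1310561 varied 1.08 times as much as counting and were not separated from one another by their intervals. The 3 high WT libraries differed from each other beyond counting, by 2.13-fold between WT 1 and WT 4 and by 3.05-fold between WT 4 and WT 5, and WT 5 was 5.46-fold above WT 2. With breaks placed at gaps of at least 1 log2 unit this gave 4 levels, against 2 for each of Ndufa1, Mis18a and Mfsd14a and 1 for Mark3. On the linear scale WT 4 stood at 46.9% and WT 5 at 15.4% of WT 1, with the rest at 0.988% to 2.82%. The largest gap, 2.37 log2 units below WT 5, was exceeded in 2.03% of the 1182 rows. On the linear scale, or without WT 4, the largest gap fell below WT 1 alone.

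WT 1 and WT 4 were high in both Mis18a and NEWGENE_1310561, and Mis18a was, with 2 rows ahead of it, among the rows most like NEWGENE_1310561 (1.15 log2 units, against a median of 1.61 over 1181 rows). The most alike, AABR07051642.1 on chromosome 3 (1.07) and the same unnamed model on chromosome 2 (1.08), were also highest in these libraries. AABR07051642.1 was between 68.6 and 134 scaled counts in Cmg2-KO, and at 432 in WT 1 and 354 in WT 4 with 53.3 to 92.6 in the other WT libraries. The 2 genes parted in WT 2, where Mis18a was at its upper level and NEWGENE_1310561 at its lower. Fibroblast markers, alone among the summed marker lists with genes in the table, were also highest in WT 1 and WT 4. The 2 of 9 fibroblast markers in the table, Dcn and Pi16, summed to 1509 to 1740 in Cmg2-KO 1, 2, 3 and 5 and 2669 in Cmg2-KO 4, and to 4215 in WT 1 and 5256 in WT 4 with 1957 to 2748 in the other WT libraries. Both markers were lower in Cmg2-KO by log2 fold change. Rows are in the table for the genotype contrast, so high sums in WT libraries were partly fixed by that choice. The part of fibroblasts in the levels of the 2 genes was not tested.

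Of 4 table rows within 1 Mb of NEWGENE_1310561, the nearest 3 did not follow its levels. Alkbh6, which encodes an AlkB-type dioxygenase homolog 211 kb away, was at 21.7, 22.0, 109, 2.84 and 6.24 in Cmg2-KO 1 to 5 and between 0 and 13.2 in WT. LOC108348122, described as CAP-Gly domain-containing linker protein 3 and 195 kb away, was between 0 and 25.2 in Cmg2-KO and between 0 and 6.09 in WT. The amino acid transporter gene Slc7a9, 538 kb away, was between 7.56 and 31.3 in Cmg2-KO and between 4.06 and 15.6 in WT.

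Mfsd14a, the transporter-family gene, was high in 2 WT libraries. It stood at 17.4, 15.8, 14.6, 10.4 and 13.5 scaled counts in Cmg2-KO 1 to 5, against 20.3, 29.0, 98.8, 87.0 and 22.1 in WT 1 to 5. It was the 1 gene of the 5 whose genotypes did not overlap, which held for 16.3% of all 1319 rows, but by a narrow margin, since Cmg2-KO reached 17.4 and WT began at 20.3 with overlapping intervals. The means were 14.3 ± 2.63 in Cmg2-KO and 51.4 ± 38.2 in WT (SD, n = 5 each), and the log2 fold change fitted by limma was -1.47 ± 0.46 (SE). In the authors' deposited table the log2 fold change was -1.84 and the adjusted p was 0.0479.

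WT 3 and WT 4, with 89 and 86 reads, were not separated from each other and varied 0.712 times as much as counting. The gap below them was 1.55 log2 units, a 2.99-fold step, and was exceeded in 5.58% of the 1182 rows. The other 8 libraries, at 10.5% to 29.4% of WT 3, varied 1.89 times as much as counting, with no neighbouring pair apart. Among them WT 2, with an interval of 19.3 to 42.0, was apart from Cmg2-KO 4, at 5.19 to 18.6. WT 1, WT 2 and WT 5 all lay above every Cmg2-KO library. Of 18 genes of the Mfsd family list, Mfsd4a was also in the table, at 81.3 ± 19.5 in Cmg2-KO and 115 ± 20.04 in WT (SD, n = 5 each), and its log2 fold change of -0.51 ± 0.19 (SE) had an adjusted p of 0.809 in limma.

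The Mfsd14a split recurred in 3 rows on other chromosomes. LOC108348137, described as an armadillo repeat-containing X-linked protein, was between 6.95 and 14.6 scaled counts in Cmg2-KO, and at 95.5 in WT 3 and 66.7 in WT 4 with 6.09 to 15.6 in the other WT libraries. Fam50a, which the table places on chromosome 4, was between 11.5 and 31.2 in Cmg2-KO, and at 112 in WT 3 and 298 in WT 4 with 17.9 to 34.2 in the other WT libraries. Ucma, a cartilage matrix gene on chromosome 17, was between 0.879 and 8.69 in Cmg2-KO, and at 37.7 in WT 3 and 60.7 in WT 4 with 1.05 to 14.2 in the other WT libraries. Fam50a was also the row most like Mfsd14a (0.44 log2 units, against a median of 0.81), followed by the ligand gene Wnt5b and the calcium sensor gene Hpcal4 (both 0.47). The 1 row within 1 Mb, an unnamed gene model 999 kb away described by a retroviral envelope domain, was at 50.4, 141, 10.4, 95.5 and 86.3 in Cmg2-KO 1 to 5 and at 7.11, 47.7, 11.1, 15.2 and 6.31 in WT 1 to 5.

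Mark3, the polarity kinase gene and the most abundant of the 5, was higher in 4 of the 5 Cmg2-KO libraries. It stood at 1962, 2188, 1940, 1277 and 2343 scaled counts in Cmg2-KO 1 to 5, against 1263, 1279, 1343, 1183 and 1329 in WT 1 to 5. Cmg2-KO 4 lay within the WT range, so the genotypes overlapped. The means were 1942 ± 407 in Cmg2-KO and 1279 ± 63.4 in WT (SD, n = 5 each), and the log2 fold change fitted by limma was 0.57 ± 0.14 (SE). In the authors' deposited table the log2 fold change was 0.60 and the adjusted p was 0.0105.

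The difference in Mark3 was small beside those of the other genes. The 4 upper libraries averaged 1.65-fold above the 6 lower ones. Between Cmg2-KO 3 and WT 3 the gap was 0.53 log2 units, which 29.0% of the 1182 rows exceeded. Those rows were not matched to Mark3, with a mean of 1611 scaled counts, by abundance. That gap was nevertheless 3.38 times the next largest and the intervals on its sides, 1853 to 2031 and 1268 to 1421, were apart. The lower libraries stood at 50.5% to 57.3% of the highest and varied 2.42 times as much as counting. The upper ones stood at 82.8% of it or more and varied 17.7 times as much, with Cmg2-KO 1 and 3 apart from Cmg2-KO 2 and 5.

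**Figure D2:**
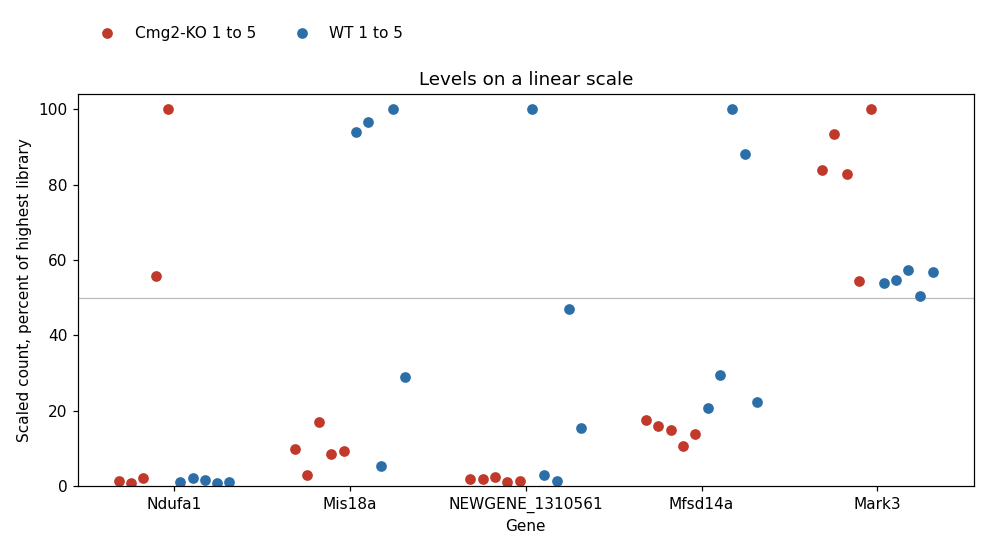
Scaled count of each gene in each library as a percent of the gene's highest library, on a linear axis from 0, Cmg2-KO in red and WT in blue, with a line at 50. Cmg2-KO 4 lies at 55.8% for Ndufa1, WT 4 at 46.9% and WT 5 at 15.4% for NEWGENE_1310561, and the lower Mark3 libraries at 50.5% to 57.3%. No library of Mis18a or Mfsd14a lies between 29.4% and 88.0%. The line marks 50% of the highest library, which is not a midpoint between the levels of a gene.

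Mark3 shared its split with 4 rows that had gaps of at least 1 log2 unit, on chromosomes 1, 2 and X. The largest gap was in an unnamed gene model on chromosome 2, at 110, 79.1, 115, 9.45 and 105 scaled counts in Cmg2-KO 1 to 5 and between 2.22 and 7.11 in WT. AABR07037009.1 on chromosome X was at 46.9, 47.4, 63.7, 8.51 and 47.8 in Cmg2-KO 1 to 5 and between 4.21 and 13.5 in WT. Lilrb3, an inhibitory leukocyte receptor gene, and Micb, described as an MHC class I polypeptide-related gene, both lie on chromosome 1 and had the same libraries above the gap, though not in the same order. Micb was between 430 and 492 in the upper Cmg2-KO libraries and at 147 in Cmg2-KO 4, against 149 to 190 in WT. The same 4 libraries were thus above the gap in rows of 4 chromosomes, Mark3 on chromosome 6 included. The summed levels of club cell and of fibroblast markers also set Cmg2-KO 4 within the WT range and the other Cmg2-KO libraries below it. The 4 of 9 club cell markers in the table, Scgb1a1, Cyp2f4, Agr2 and Bpifb1, summed to 176966 in Cmg2-KO 4 and to 84396 to 119909 in the other Cmg2-KO libraries, against 144340 to 196851 in WT. Nearly all of that sum was Scgb1a1, which with Cyp2f4 made this split, while Agr2 and Bpifb1 did not. The fibroblast markers Dcn and Pi16 summed to 2669 in Cmg2-KO 4 and to 1509 to 1740 in the other Cmg2-KO libraries, against 1957 to 5256 in WT, and of these Dcn made the split and Pi16 did not. Smooth muscle markers, with 8 of 10 in the table, did not make this split. Their sum put both Cmg2-KO 1 (34207) and Cmg2-KO 4 (35338) within the WT range of 28614.5 to 46448.8. All of these club cell, fibroblast and smooth muscle markers were lower in Cmg2-KO by log2 fold change. Rows are in the table for the genotype contrast, so sums of Cmg2-KO libraries below WT were largely fixed by that choice. The part of these cell types in the Mark3 levels was not tested.

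**Figure D3:**
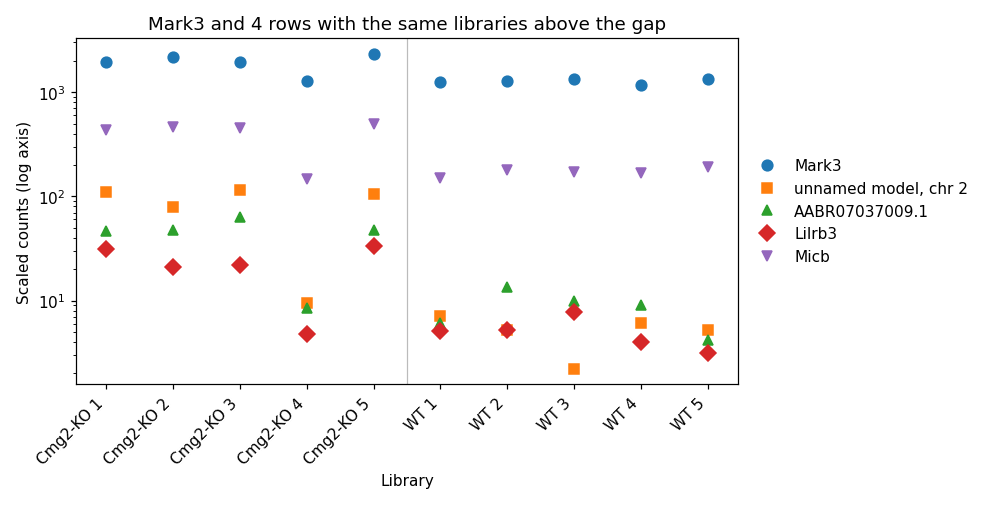
Scaled counts on a log axis of Mark3 and of the 4 rows with the same libraries above the gap, in Cmg2-KO 1 to 5 (left) and WT 1 to 5 (right). Cmg2-KO 4 lies below the other Cmg2-KO libraries in every row, for example at 147 for Micb and at 1277 for Mark3.

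The rows whose pattern was most like Mark3 were the malic enzyme gene Me3 (0.16 log2 units, against a median of 0.45), the chromatin remodelling ATPase gene Smarca1 (0.18) and an unnamed gene model on chromosome 10 (0.18). Me3 was at 442, 497, 267, 221 and 517 in Cmg2-KO 1 to 5 and between 232 and 279 in WT, so Cmg2-KO 3 joined Cmg2-KO 4 at the lower level there. Of 25 MARK and polarity kinase genes, Mark1 was also in the table, at 112 ± 16.1 in Cmg2-KO and 145 ± 23.5 in WT (SD, n = 5 each), and its log2 fold change of -0.36 ± 0.15 (SE) had an adjusted p of 0.869 in limma. The 3 rows within 1 Mb did not set Cmg2-KO 4 apart. Exoc3l4, related to exocyst components and 161 kb away, was between 293 and 339 in Cmg2-KO and between 94.4 and 280 in WT, with Cmg2-KO 4 at 297. Rcor1, a REST corepressor gene 490 kb away, was between 523 and 612 in Cmg2-KO and between 471 and 551 in WT. An unnamed gene model 396 kb away, described by a mitochondrial proteolipid domain, was between 420 and 573 in Cmg2-KO, with Cmg2-KO 4 at 454, and between 266 and 461 in WT.

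Across the 5 genes every library was on the high side of at least 1, WT 4 of 3, Cmg2-KO 5 and WT 1 of 2, and the others of 1. The authors' deposited table gives all 5 genes an adjusted p under 0.05, which it gives to 5.46% of its rows. Ndufa1 and Mark3 were higher in Cmg2-KO there, as called for 3.11% of rows, and Mis18a, NEWGENE_1310561 and Mfsd14a lower, as called for 2.35%. This contrast was known when the genes were chosen, so nothing is read from these counts. In limma 3 of 1308 rows passed an adjusted p of 0.05 (0.229%), and 1035 had an unadjusted p under 0.05. The spread on the log2 scale was larger in the genotype that held both high and low libraries, with a standard deviation of 3.12 in Cmg2-KO and 0.45 in WT for Ndufa1, 0.83 and 1.75 for Mis18a, 0.44 and 2.54 for NEWGENE_1310561, 0.26 and 1.08 for Mfsd14a, and 0.34 and 0.07 for Mark3.

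**Figure D4:**
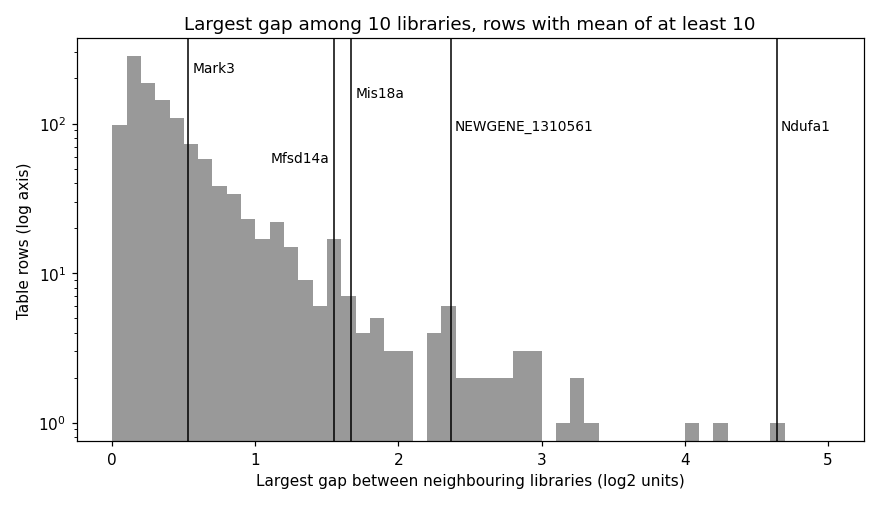
Number of table rows (log axis) by the largest gap between neighbouring libraries, in log2 units, for the 1182 rows with a mean of at least 10 scaled counts, with a line at each of the 5 genes. Ndufa1 lies at the far end at 4.64, NEWGENE_1310561 at 2.37, Mis18a at 1.67 and Mfsd14a at 1.55, and Mark3 at 0.53 lies within the main body.

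In discreteness the genes thus differed. Mfsd14a had 2 levels, with variances of 0.712 and 1.89 times counting inside them, and within its lower level the WT libraries lay above the Cmg2-KO libraries. Mis18a had a tight upper level and a spread below it, with WT 5 in between. Ndufa1 had a lower level close to counting noise and a pair of high libraries that differed from each other. NEWGENE_1310561 had a lower level of the same kind and 3 high libraries that each stood alone. Mark3 had 2 sets of libraries whose means differed by 1.65-fold, each spread beyond counting noise. Whether these levels follow alleles was not tested.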

How the data were processed

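Per the labels, RNA from flash-frozen lung was extracted with Trizol and made into libraries with a NEBNext Ultra kit, with no strand stated, so reads of antisense genes may be included. The submitters' processing notes name HISAT2 2.0.5 for alignment and featureCounts 1.5.0-p3 for counting. The sources used here do not give the build, the annotation or the tool behind the authors' statistics. Per the file headers and values, the 1 deposited table holds 1319 genes, each with an unadjusted p-value of the authors under 0.05. Its 10 library columns are a signal, the authors' read counts divided by a size factor, and within 0.02 reads 100% of the values were whole multiples of what 1 read is worth. The authors also deposited group means, a log2 fold change, a fold (ratio), p-values, adjusted p-values and gene lengths.

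Libraries were grouped by genotype label, 5 Cmg2-KO and 5 WT. Limma 3.58.1 (trend, robust; R 4.3.3) was fitted to log2(scaled count + 1) over the 1308 genes above 0.5 in at least 5 libraries, all 5 members among them, as the plan for scaled values had it. Benjamini-Hochberg adjustment used 19894 genes, the number that the authors' adjusted p-values fit. The p-values rest on library spread alone, which may be technical. The fit and the gap split were tested on simulated data. Variance within a level is the chi-square of the reads over its degrees of freedom. Poisson intervals used the reads recovered from the scaled counts.

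The members, gene lists and rules were chosen with earlier results of these data known. The rule for other named rows took, for each member, the nearest 3 rows within 1 Mb, the 3 rows most alike and up to 3 rows with the same split, and up to 4 genes of each list. Micb, a further row with the Mark3 split, was named as well, after its values were seen. Levels were compared with marker lists by their sums, and also with single markers of the plasma and B cell, club cell and fibroblast lists. Alternatives covered pseudocount, filter, scaling, test, adjustment, replicate block and leaving out each library. EdgeR 4.0.16 and DESeq2 1.42.0 were run on the recovered reads of 9 libraries, an alternative added after the data were seen. WT 4, at 1.01 scaled counts per read, was left out because a check of the units did not accept its reads as recovered. WT 1, at 1.02, was kept. The Poisson intervals include WT 4.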

Additional observations from a re-analysis of the deposited data

Results flagged for a closer look

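Within each genotype, a library counted as far from its group when the gap to its nearest neighbour exceeded 0.71 of the whole log2 spread. This was applied to 96 groups of 5 libraries, 2 for each of the 48 rows named in the text, and found 8. Chance gives about 1 in 20 for rows chosen without regard to their values. Some of these rows were named for a split that sets 1 library apart, so the 8 cannot be compared with that rate. None was among the 5 genes themselves, and the library was Cmg2-KO 4 in 6 of them and WT 1 in the other 2.

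Cmg2-KO 4 was at 9.45 scaled counts in an unnamed gene model on chromosome 2, with 79.1 to 115 in the rest of its group. It was at 8.51 in AABR07037009.1, against 46.9 to 63.7, at 4.73 in Lilrb3, against 21.1 to 33.3, and at 147 in Micb, against 430 to 492. These 4 rows were named because they share the Mark3 split, which sets Cmg2-KO 4 apart, so they are not independent of it. In AABR07051642.1 Cmg2-KO 4 was high, at 134 against 68.6 to 76.5, and likewise in the fibroblast marker Dcn, at 1678 against 971 to 1067. WT 1 was high in Scgb1a1, at 195238 against 143906 to 152709 in the other WT libraries, and low in Ndufaf6, at 136 against 157 to 163.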

How the results depend on the processing

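The libraries above the largest gap were unchanged in 73 of 75 alternatives over the 5 genes, the exceptions being NEWGENE_1310561 on the linear scale and without WT 4, with 1 library above. Leaving out each library gave 1 to 2 libraries above the gap for Ndufa1 and Mfsd14a, 2 to 3 for Mis18a, 1 to 3 for NEWGENE_1310561 and 3 to 4 for Mark3, the lower figure arising where a high library was the one left out. The log2 fold changes kept their direction in all 75 alternatives run, from 1.44 to 3.09 for Ndufa1, -2.99 to -1.95 for Mis18a, -3.58 to -2.09 for NEWGENE_1310561, -1.71 to -1.16 for Mfsd14a and 0.50 to 0.72 for Mark3 when single libraries were left out. The 3 rows called by limma became 257 when adjusted over the tested rows alone, 49 with DESeq2 and 1 with edgeR on recovered reads, and between 1 and 6 when a library was left out, with 1 without Cmg2-KO 1, 6 without Cmg2-KO 3 or Cmg2-KO 4 and 5 without WT 3. Apart from the number of genes adjusted over, the cause was not tested. Libraries with the same replicate number did not deviate together (correlations -0.0156 to 0.0873 over 1308 rows, 2 of 5 Cmg2-KO libraries closest to the WT library of their own number), and the replicate block gave 0 rows in limma, with 899 at an unadjusted p under 0.05. Depth limits the low levels, which rest on 4 to 34 reads per library for Mis18a and 5 to 13 for NEWGENE_1310561.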

Other observations

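Rows with a wide gap were common in the table and seldom split exactly by genotype. Of the 139 rows with a gap of at least 1 log2 unit, 6 split exactly by genotype, 58 set 1 library apart and 71 set 2 to 4 libraries apart. The remaining 4 split the libraries 5 and 5, each side holding 4 libraries of 1 genotype and 1 of the other. Splits whose smaller side held only some libraries of 1 genotype were not counted as following genotype. WT 5 was the library set apart alone most often, in 15 rows, and the others were alone in 1 to 8 rows. Each library was on the smaller side of 20 to 36 of the 139 rows. The Mark3 split was among the patterns seen in 4 rows with such a gap. All these rows had been selected by the authors' p-value for the genotype contrast, so the counts do not describe the whole transcriptome.

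Rows described by retroviral domains lay within 1 Mb of 2 of the 5 genes, both unnamed gene models. They were 358 kb from Mis18a and 999 kb from Mfsd14a, the latter just inside the limit. How often such rows lie near other genes was not counted, so nothing is read from this. In the one near Mis18a the Cmg2-KO libraries were between 0.879 and 10.4 scaled counts and the WT libraries between 2.10 and 91.4, and in the one near Mfsd14a they were between 10.4 and 141 and between 6.31 and 47.7.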
